A study of Mus musculus with 30 samples.

Results

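Transcripts of 10 genes of the Wnt pathway were followed in cultured mouse myotubes that were kept in serum, deprived of serum, or deprived of serum with metformin, leucine or both. The 10 genes, Wnt4, Sfrp1, Sfrp2, Dkk2, Dkk3, Ctnnb1, Lef1, Tcf7, Tcf7l2 and Axin2, were listed by name as a ligand, inhibitors, effectors and a target of the pathway. The list was drawn up with earlier results of these data known, so counts of members that passed describe the list and are no independent sample of the pathway. They are 10 of the 55487 genes counted, and all 10 were among the 15907 genes with enough counts to be tested. The cells were wild-type C2C12, an established mouse myoblast line that fuses into myotubes when serum is lowered. All groups were grown to confluence in high-glucose DMEM with fetal bovine serum and differentiated for 4 days in low-glucose DMEM with 2% horse serum. For 4 further days the 2% HS group stayed in 2% horse serum, the SD group received no serum, the MET group received no serum with 100 nM metformin, the LEU group no serum with 500 nM leucine, and the MET+LEU group no serum with both at those doses, so that every library was taken at 8 days in total. The comparisons ask how serum deprivation, used as an atrophy stimulus, and low-dose metformin and leucine during it, moved these transcripts. Each group had 6 libraries. The labels give 6 replicates per group without saying whether they were separate cultures, so p-values measure the spread between these libraries, and a single line limits the model to the cells it holds.

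In the canonical Wnt pathway, secreted Wnt proteins bind Frizzled receptors and the co-receptors Lrp5 and Lrp6 and thereby stop the destruction complex, built on Axin and Apc, from marking β-catenin for degradation. Stabilised β-catenin enters the nucleus and acts with the DNA-binding factors Tcf7, Tcf7l1, Tcf7l2 and Lef1 to switch on targets such as Axin2, which feeds back on the pathway. Secreted frizzled-related proteins bind Wnt ligands outside the cell, and Dickkopf proteins act at the co-receptors. In skeletal muscle, Wnt signalling is known for its part in myoblast differentiation and regeneration.

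The libraries held 12784960 to 19604103 counts. All 9 myotube markers (Ckm, Acta1, Myh3, Myh8, Myog, Des, Actn2, Tnnt3 and Mymk) were detected and tested, with a summed level of 8869 to 10728 CPM per library (CPM are counts relative to library size, here scaled by TMM), and the adipocyte markers Adipoq, Plin1, Fabp4 and Lep and the endothelial markers Pecam1, Cdh5 and Kdr were too low to be tested. Of the macrophage markers, Cd68 was tested, with 24 to 58 counts per library, and Ptprc, Adgre1 and Csf1r were too low. In the MET+LEU group, replicate 6 stood apart in ribosomal RNA, with 5.85% of its counts on nuclear and 7.64% on mitochondrial rRNA genes. The other 29 libraries reached at most 1.96% and 0.760%. The rRNA share also moved with the groups: mitochondrial rRNA took 0.219% to 0.306% of counts in 2% HS, 0.281% to 0.367% in SD, 0.244% to 0.705% in MET, 0.501% to 0.710% in LEU and 0.649% to 0.760% in MET+LEU replicates 1 to 5, so that every MET+LEU library lay above every SD library. The TMM scaling factors of MET+LEU, 0.803 in replicate 6 and 0.968 to 0.985 in the others, were below those of all other libraries (0.997 to 1.034). Results that involve MET+LEU are given without replicate 6 where it mattered.

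The promoters of the members that carry the findings are shown first. Dkk2, Sfrp2 and Lef1 were the members that differed between MET+LEU and SD, and Axin2 was the member that fell with SD. Each sequence is the stretch of 250 bases before a RefSeq start on build GRCm38, on the + strand of the genome, with capitals for the TCF/LEF core CTTTGA, the TATA box TATAAA and the GC box GGGCGG on either strand. All 3 motifs were searched as exact letters, and GC-box matches may overlap one another.
Dkk2, chr3:132085042-132085291: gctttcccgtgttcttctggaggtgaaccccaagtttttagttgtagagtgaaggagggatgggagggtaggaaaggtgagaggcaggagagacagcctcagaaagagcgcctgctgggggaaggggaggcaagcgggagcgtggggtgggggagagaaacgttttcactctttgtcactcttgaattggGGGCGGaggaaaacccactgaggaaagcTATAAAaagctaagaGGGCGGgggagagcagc
Sfrp2, chr3:83766071-83766320: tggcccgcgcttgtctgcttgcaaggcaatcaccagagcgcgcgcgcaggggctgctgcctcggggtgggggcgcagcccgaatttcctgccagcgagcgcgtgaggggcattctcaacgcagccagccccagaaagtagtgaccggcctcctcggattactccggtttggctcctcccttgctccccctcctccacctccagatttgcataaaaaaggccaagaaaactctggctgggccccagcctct
Lef1 start 1, chr3:131110047-131110296: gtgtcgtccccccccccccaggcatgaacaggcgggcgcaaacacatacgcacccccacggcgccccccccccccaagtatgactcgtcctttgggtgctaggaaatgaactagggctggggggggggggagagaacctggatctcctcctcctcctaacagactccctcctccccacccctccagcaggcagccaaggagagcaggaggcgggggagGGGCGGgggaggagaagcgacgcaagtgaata
Lef1 start 4, chr3:131156044-131156293: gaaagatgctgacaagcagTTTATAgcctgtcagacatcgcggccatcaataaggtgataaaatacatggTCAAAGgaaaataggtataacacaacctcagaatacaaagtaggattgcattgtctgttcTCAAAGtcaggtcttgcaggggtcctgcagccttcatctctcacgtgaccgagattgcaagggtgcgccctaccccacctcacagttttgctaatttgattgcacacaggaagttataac
Axin2, chr11:108920099-108920348: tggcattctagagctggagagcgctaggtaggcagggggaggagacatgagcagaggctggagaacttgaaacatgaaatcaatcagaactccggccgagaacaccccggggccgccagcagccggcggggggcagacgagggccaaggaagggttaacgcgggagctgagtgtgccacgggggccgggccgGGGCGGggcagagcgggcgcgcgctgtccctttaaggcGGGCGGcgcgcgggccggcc
Lef1 start 4 lies within the gene, in a stretch that holds no exon of GENCODE M21, and the other stretches shown end before the annotated gene. Motifs were counted over windows of 300 bases, which add 50 bases after the start to the stretches shown. CTTTGA was present in 1 of the 14 windows of the 8 members that have one in the table, at Lef1 start 4 with 2 matches, against 16% of all 32851 windows. TATAAA was in 5 of the 14 member windows and 13.62% of all, and in Dkk2 it began 32 bases before the start (position -32). GGGCGG was in 11 of the 14 and 35.66% of all. The matches describe these windows only. Sfrp1 and Dkk3 have no window in the table.

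Of the members, serum deprivation moved the secreted inhibitors most. In SD vs. 2% HS, Sfrp1, Sfrp2, Dkk2 and Dkk3 all rose, by 1.73-fold to 7.32-fold, the nuclear factor Tcf7l2 rose 1.27-fold, and Axin2, a target and feedback inhibitor, fell to 0.759 of its level. Wnt4, Ctnnb1, Lef1 and Tcf7 did not pass the threshold. In all, 6 of the 10 members passed an adjusted p of 0.05 (edgeR's quasi-likelihood test, Benjamini-Hochberg adjustment over all genes tested), 5 higher and 1 lower, where 27.8% of all genes tested passed, 13.9% in each direction. The members' median log2 fold change was 0.33 and that of all genes was 0.0028. Ranges of the libraries did not overlap for 5 members, against 13.6% of all genes. Both counts include Dkk2, which the count filter kept through the serum-free groups, where it was higher.

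**Figure D1:**
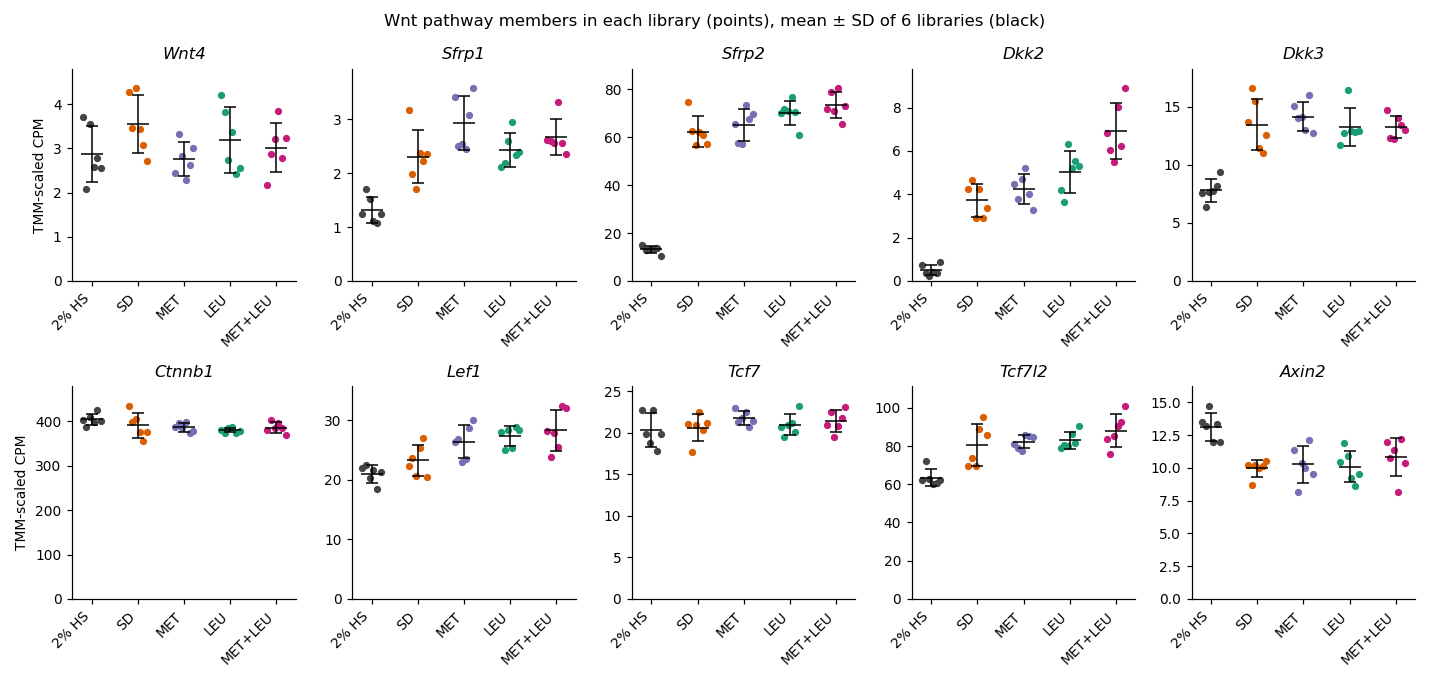
TMM-scaled CPM (vertical axes, from 0) of each of the 10 members in the 5 groups, with a point for each library and the mean ± SD of 6 libraries in black. Dkk2 and Sfrp2 in SD lie above every 2% HS library, Axin2 lies below every one, and Dkk2 rises further in MET+LEU to 5.48 to 8.91 CPM.

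Wnt4 is the one ligand among the members. It was low in every group, with 2.09 to 4.37 CPM over the 30 libraries and medians of 2.68 with serum, 3.44 with SD, 2.72 with MET, 3.06 with LEU and 3.04 with both agents. The groups overlapped throughout. Its log2 fold change was 0.31 (SE 0.16, adjusted p = 0.155) in SD vs. 2% HS and -0.38 (SE 0.16, adjusted p = 0.403) in MET vs. SD, where the unadjusted p was 0.0228 and 3 of 6 MET libraries lay below all SD libraries.

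Sfrp2, a secreted frizzled-related protein, was the most abundant of the 4 inhibitors. In 2% HS it ranged from 10.6 to 15 CPM with a median of 13.2, and in SD from 56.6 to 74.5 with a median of 61.5. The lowest SD library was thus well above the highest in 2% HS. The log2 fold change was 2.24 (SE 0.08, adjusted p = 6.6e-23), or 4.74-fold. Without serum the level went on in the order SD, MET (57.2 to 73.2 CPM, median 66.6), LEU (61.1 to 76.7, median 70.7) and MET+LEU (65.4 to 80.5, median 72.4). These 4 groups overlapped, and of neighbours in this order SD and MET (log2 fold change 0.06, adjusted p = 0.825) and LEU and MET+LEU (0.07, adjusted p = 0.597) did not differ beyond their spread.

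Dkk2, a Dickkopf protein that binds the co-receptors, had the largest fold change of the 10 both with serum deprivation and with MET+LEU during it. It was near the limit of detection in 2% HS, with 4 to 13 counts per library, or 0.253 to 0.899 CPM (median 0.396). In SD it ranged from 2.91 to 4.65 CPM (median 3.80), in MET from 3.27 to 5.21 (median 4.26), in LEU from 3.64 to 6.31 (median 5.25) and in MET+LEU from 5.48 to 8.91 (median 6.52). Every serum-free library was above every 2% HS library, and every MET+LEU library was above every SD and every MET library. SD vs. 2% HS gave a log2 fold change of 2.87 (SE 0.23, 95% interval 2.41 to 3.33, adjusted p = 1.8e-14). The small counts in 2% HS make the size of this fold less certain than its direction. The count filter kept Dkk2 through the serum-free groups. Its place in counts of genes that passed against 2% HS is thus not independent of its rise.

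Sfrp1, which like Sfrp2 binds Wnt ligands, was low at 1.077 to 1.70 CPM in 2% HS (median 1.24) and 1.71 to 3.17 in SD (median 2.29). The ranges touched without overlapping. The log2 fold change was 0.82 (SE 0.18, adjusted p = 2.55e-04). MET was at 2.46 to 3.59 CPM, LEU at 2.11 to 2.96 and MET+LEU at 2.35 to 3.33, all overlapping SD.

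Dkk3, a divergent Dickkopf family member, was at 6.35 to 9.34 CPM in 2% HS (median 7.70) and 11 to 16.6 in SD (median 13.1). All 6 SD libraries were above all 2% HS libraries. The log2 fold change was 0.79 (SE 0.10, adjusted p = 7.3e-09). The medians of the other serum-free groups, 14.04 with MET, 12.8 with LEU and 13.2 with both, stayed near that of SD, and their ranges overlapped it.

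Genes listed as fibroblast markers also rose in SD vs. 2% HS. All 4 of these that were tested (Pdgfra, Dcn, Col1a1 and Col3a1) passed, with log2 fold changes of 0.45 to 0.83, where 27.8% of all genes passed. The summed level of the 5 on the list went from 2986 to 3296 CPM in 2% HS to 5201 to 5518 in SD. That sum was mostly collagen transcripts: over all libraries Col3a1 averaged 4231 CPM and Col1a1 675, beside 27.8 for Dcn and 15.5 for Pdgfra. In all 4 markers tested, every SD library was above every 2% HS library. Thy1, the other marker on the list, had 0 to 7 counts per library and was too low to be tested. The 6 proliferation markers (Mki67, Top2a, Ccnb1, Cdk1, Bub1 and Plk1) did not pass, with log2 fold changes of -0.10 to 0.15. Of the 5 markers of unfused myoblasts or reserve cells, Cd34 rose by 0.43 on the log2 scale, Pax7 fell by 0.37 and Myod1 fell by 0.28, and the list's summed level was 661 to 705 CPM in 2% HS and 547 to 625 in SD. Among the myotube markers Des rose by 0.13 on the log2 scale, Ckm fell by 0.98 and Actn2 fell by 0.34. The part of such cells in the inhibitors' rise was not tested, and in RNA from whole cultures more cells of a type cannot be told apart from more RNA per cell.

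**Figure D2:**
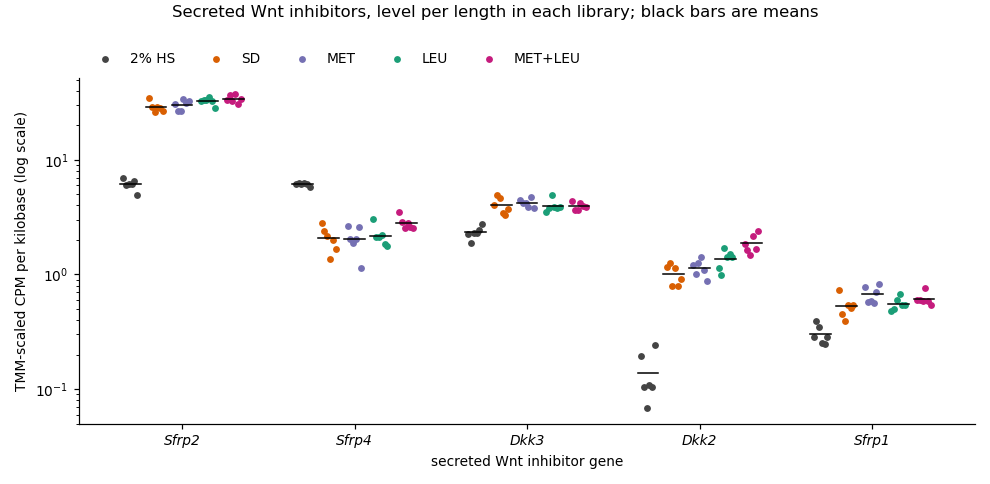
Level per length, in TMM-scaled CPM per kilobase of annotated exons (log axis), of the 4 member inhibitors and Sfrp4 in every library, with black bars at group means. Sfrp2 in SD stood at 28.9 ± 3.00 (SD, n = 6), above the other inhibitors in every serum-free group, and Sfrp4 moved the other way from 2% HS to SD.

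Ctnnb1 encodes β-catenin, which relays the signal from the membrane to the nucleus. It was the most abundant member, at 355 to 435 CPM over all 30 libraries, with medians between 381 in LEU and 403 in 2% HS. The groups overlapped, and its log2 fold change in SD vs. 2% HS was -0.05 (SE 0.04, 95% interval -0.12 to 0.02, adjusted p = 0.325). β-Catenin is regulated chiefly as a protein, which was not measured here.

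Tcf7l2, a DNA-binding partner of β-catenin, was at 59.9 to 72.1 CPM in 2% HS (median 62.2) and 69.5 to 95.0 in SD (median 79.8). All 6 SD libraries were above the 2% HS mean and 4 of 6 were above every 2% HS library, so the ranges overlapped. Among the SD libraries, replicates 1 to 3 were at 69.5 to 73.7 CPM and replicates 4 to 6 at 85.8 to 95.0. The log2 fold change was 0.34 (SE 0.07, adjusted p = 1.43e-04). Medians were 83.0 with MET, 81.1 with LEU and 87.9 with both. The transcript Ppnr, annotated within Tcf7l2 on the same strand, had 134 to 272 counts per library. How reads that overlap both genes were counted is not given in the sources used here.

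Tcf7, a second such partner, showed little movement. It was at 17.7 to 23.3 CPM over the 30 libraries, with group medians of 19.9 to 21.6 CPM, and its log2 fold change in SD vs. 2% HS was 0.02 (SE 0.06, 95% interval -0.11 to 0.15, adjusted p = 0.865).

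Lef1, the last of the nuclear factors among the members, ranged from 18.4 to 22.4 CPM in 2% HS (median 21.5) and from 20.5 to 27.1 in SD (median 23.01). These groups overlapped, and the log2 fold change of 0.14 did not pass (SE 0.08, adjusted p = 0.165). In MET it was at 23.01 to 30.03 CPM (median 26.6), in LEU at 25 to 28.9 (median 28.2) and in MET+LEU at 23.8 to 32.4 (median 28.04). All libraries of MET, LEU and MET+LEU were above every 2% HS library, while each of the 3 groups overlapped SD. The same limit as for Tcf7l2 holds here: Gm42449, which overlaps Lef1 on the same strand, had 18 to 53 counts per library, beside 239 to 498 for Lef1.

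Axin2 is a target of β-catenin and TCF/LEF factors and is often read as a gauge of canonical signalling. It was at 11.96 to 14.7 CPM in 2% HS (median 13.3) and at 8.70 to 10.5 in SD (median 10.2). No SD library reached the lowest 2% HS library. The log2 fold change was -0.40 (SE 0.09, 95% interval -0.59 to -0.21, adjusted p = 8.39e-04). The other serum-free groups had medians of 10.2 (MET), 9.98 (LEU) and 11.1 (MET+LEU), and their ranges overlapped SD.

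Compared at 1 length, in TMM-scaled CPM per kilobase and as mean ± SD of 6 libraries, the order of levels in 2% HS was Ctnnb1 (77.9 ± 2.51), Tcf7 (7.74 ± 0.771), Tcf7l2 (7.22 ± 0.509), Sfrp2 (6.11 ± 0.679), Lef1 (2.39 ± 0.168), Axin2 (2.39 ± 0.190), Dkk3 (2.32 ± 0.288), Wnt4 (0.686 ± 0.150), Sfrp1 (0.301 ± 0.0560) and Dkk2 (0.137 ± 0.0663). Lef1, Axin2 and Dkk3 lay within 1 SD of each other, and the ranges of Tcf7 and Tcf7l2 overlapped. In SD, Sfrp2 (28.9 ± 3.00) moved to the second place behind Ctnnb1 (75.3 ± 5.38), Dkk3 (4.00 ± 0.664) stood above Lef1 (2.65 ± 0.302) and Axin2 (1.81 ± 0.116), and Dkk2 (1.01 ± 0.204) stood beside Wnt4 (0.847 ± 0.155), within their spread. In MET+LEU, Dkk2 (1.87 ± 0.352) had come to the level of Axin2 (1.96 ± 0.266).

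**Figure D3:**
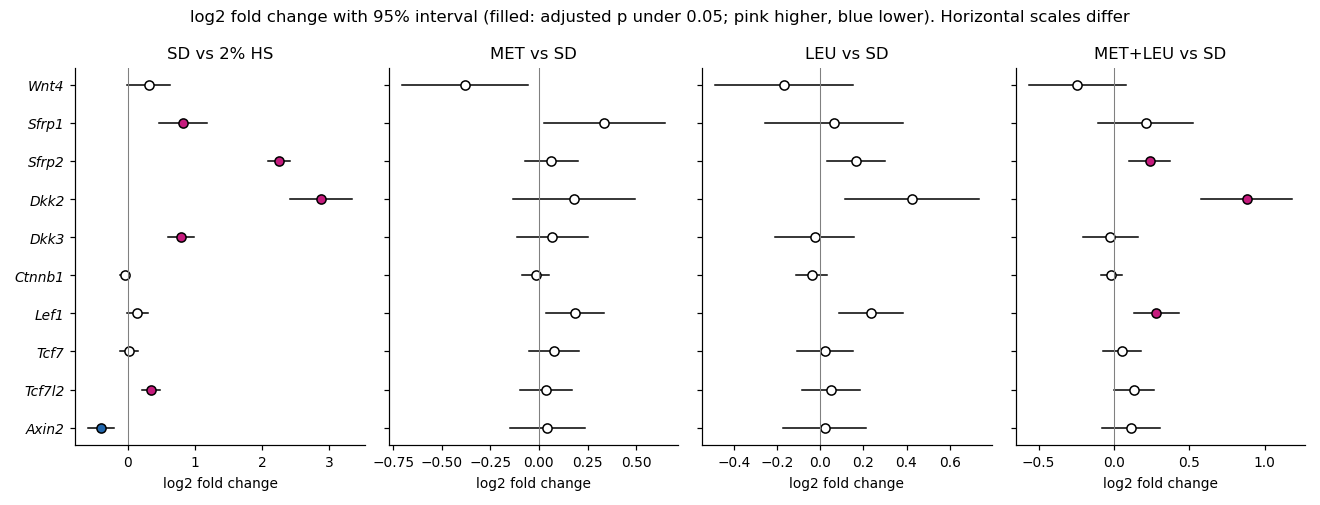
log2 fold change (horizontal axes, whose scales differ between panels) of the 10 members in 4 panels, from left to right for serum deprivation against 2% HS and then for MET, LEU and both agents against SD, with lines for the 95% interval and filled symbols for an adjusted p under 0.05. The filled symbols are 6 in the first panel, 0 in the middle panels and 3 (Sfrp2, Dkk2 and Lef1, all higher) in the last.

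With a single agent during serum deprivation, no member passed the threshold. MET vs. SD gave 0 of 10 members by edgeR and limma-voom and 0 of the 5 to which DESeq2 gave an adjusted p, where 0.157% of all genes passed by edgeR, and 3 members had an unadjusted p under 0.05. These were Wnt4 (see above), Sfrp1 with a log2 fold change of 0.34 (SE 0.16, adjusted p = 0.451) and Lef1 with 0.18 (SE 0.07, adjusted p = 0.367). LEU vs. SD likewise gave 0 of 10 by all 3 tools, where 0.553% of all genes passed by edgeR, with 3 members at an unadjusted p under 0.05. Dkk2 had a log2 fold change of 0.42 (SE 0.15, adjusted p = 0.266), with 4 of 6 LEU libraries above all SD libraries. Lef1 had 0.23 (SE 0.07, adjusted p = 0.162), also with 4 of 6 above. Sfrp2 had 0.17 (SE 0.07, adjusted p = 0.346). The 95% intervals of Dkk2, 0.11 to 0.73 on the log2 scale in LEU vs. SD and -0.13 to 0.50 in MET vs. SD, leave room for a rise that these libraries could not call.

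With both agents, 2 inhibitors and 1 nuclear factor rose. Dkk2, Sfrp2 and Lef1 passed the threshold in MET+LEU vs. SD and were higher, so 3 of 10 members passed where 18.4% of all genes did, 10.6% higher and 7.8% lower. Dkk2 rose 1.84-fold (log2 fold change 0.88, SE 0.15, adjusted p = 3.66e-05), and it was the only member whose ranges did not overlap, against 5.34% of all genes. Lef1 rose 1.21-fold (0.28, SE 0.07, adjusted p = 0.00563), with all 6 libraries above the SD mean and 4 above every SD library. Sfrp2 rose 1.18-fold (0.24, SE 0.07, adjusted p = 0.0112), with all 6 above the SD mean and 2 above every SD library. This comparison shares the SD libraries with SD vs. 2% HS.

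The other 7 members did not pass in MET+LEU vs. SD. Axin2 had a log2 fold change of 0.11 (95% interval -0.08 to 0.31, adjusted p = 0.443), Tcf7l2 0.13 (-0.002 to 0.27, adjusted p = 0.167), Sfrp1 0.21 (-0.11 to 0.53, adjusted p = 0.391) and Wnt4 -0.24 (-0.57 to 0.08, adjusted p = 0.318). Dkk3, Ctnnb1 and Tcf7 had log2 fold changes of -0.02, -0.02 and 0.05 with adjusted p of 0.628 to 0.891. The members' median was 0.12 beside -0.0050 over all genes.

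Markers of proliferation, fibroblasts and myotubes moved here too, where 18.4% of all genes passed. All 6 proliferation markers fell in MET+LEU vs. SD, by log2 fold changes of -0.89 to -0.35, and their summed level was 150 to 218 CPM in SD and 115 to 142 in MET+LEU. Of the 4 fibroblast markers tested, Dcn and Col3a1 rose (log2 fold changes 0.48 and 0.11) and Col1a1 fell (-0.35). The fibroblast list's summed level, again mostly Col3a1 and Col1a1, was 5201 to 5518 CPM in SD and 5278 to 5759 in MET+LEU. The myotube markers Myh3, Myh8 and Tnnt3 rose by 0.36, 0.38 and 0.82 on the log2 scale. Mitochondrial rRNA was higher in every MET+LEU library than in every SD library, as given above. The part of these shifts in the rise of Dkk2, Sfrp2 and Lef1 was not tested. Without MET+LEU replicate 6 the same 3 members passed, and Dkk2, which was highest in that library at 8.91 CPM, had a log2 fold change of 0.80.

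Against the serum control, the 4 member inhibitors were high in MET+LEU and Axin2 was low, while Sfrp4, an inhibitor outside the members, was lower. Of the 10 members 7 passed in MET+LEU vs. 2% HS, 6 higher and 1 lower, where 42.3% of all genes did, 22.1% higher and 20.3% lower, and 6 did not overlap, where 21% of all genes did not. Dkk2 was 13.5-fold higher (log2 fold change 3.75, SE 0.21), Sfrp2 5.58-fold (2.48, SE 0.08), Sfrp1 2.04-fold (1.03, SE 0.17), Dkk3 1.70-fold (0.76, SE 0.10), Tcf7l2 1.39-fold (0.48, SE 0.07) and Lef1 1.34-fold (0.42, SE 0.07), with adjusted p of 9.35e-06 or lower. Axin2 was lower, at 0.822 of its 2% HS level (-0.28, SE 0.09, adjusted p = 0.0118), with 4 of 6 MET+LEU libraries below every 2% HS library. Wnt4, Ctnnb1 and Tcf7 did not pass, at log2 fold changes of 0.07, -0.07 and 0.07.

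Set against each agent alone, Dkk2 was the 1 member to pass, a count near the share of all genes, and against LEU it passed only at the threshold. It was 1.62-fold higher in MET+LEU vs. MET (log2 fold change 0.70, SE 0.15, adjusted p = 0.00208), the 1 of 10 members to pass, where 8.69% of all genes passed, and its ranges did not overlap, as for 3.77% of all genes. Without MET+LEU replicate 6 this log2 fold change was 0.61. Against LEU it was 1.37-fold higher (0.46, SE 0.14, adjusted p = 0.0462), again 1 of 10, where 6.28% of all genes passed. All 6 MET+LEU libraries were above the LEU mean and 3 were above every LEU library. This second call sits at the threshold: it was lost in 24 of the 30 fits that left out 1 library, with an adjusted p of up to 0.154, reached without MET+LEU replicate 6. The adjusted p of the other 9 members was 0.1005 to 0.982 in MET+LEU vs. MET and 0.498 to 0.993 in MET+LEU vs. LEU.

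Whether the effect of both agents differed from the sum of each was tested as an interaction of MET and LEU, in which 0 of 10 members passed by edgeR and limma-voom, with 0 at an unadjusted p under 0.05 by edgeR or DESeq2, where 0.0503% of all genes passed by edgeR. Dkk2 had an interaction of 0.28 on the log2 scale (SE 0.21, 95% interval -0.15 to 0.70, adjusted p = 0.759), which leaves both a sum and a rise beyond it within the interval. Lef1 had -0.14 (SE 0.10, 95% interval -0.35 to 0.07) and Sfrp2 0.01 (SE 0.09, 95% interval -0.18 to 0.20).

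The 10 members were set beside the rest of the pathway with a list of 104 Wnt genes by role that holds them, of which 78 were tested. In SD vs. 2% HS, 20 rose and 12 fell, or 41.0% of those tested beside 27.8% of all genes. Without the 10 members the count was 15 up and 11 down of 68. The median log2 fold change of the 78 was 0.03. Each role held few tested genes. Counts by role below stand beside 13.9% of all genes in each direction in SD vs. 2% HS. In MET+LEU vs. SD these shares were 10.6% higher and 7.8% lower.

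**Figure D4:**
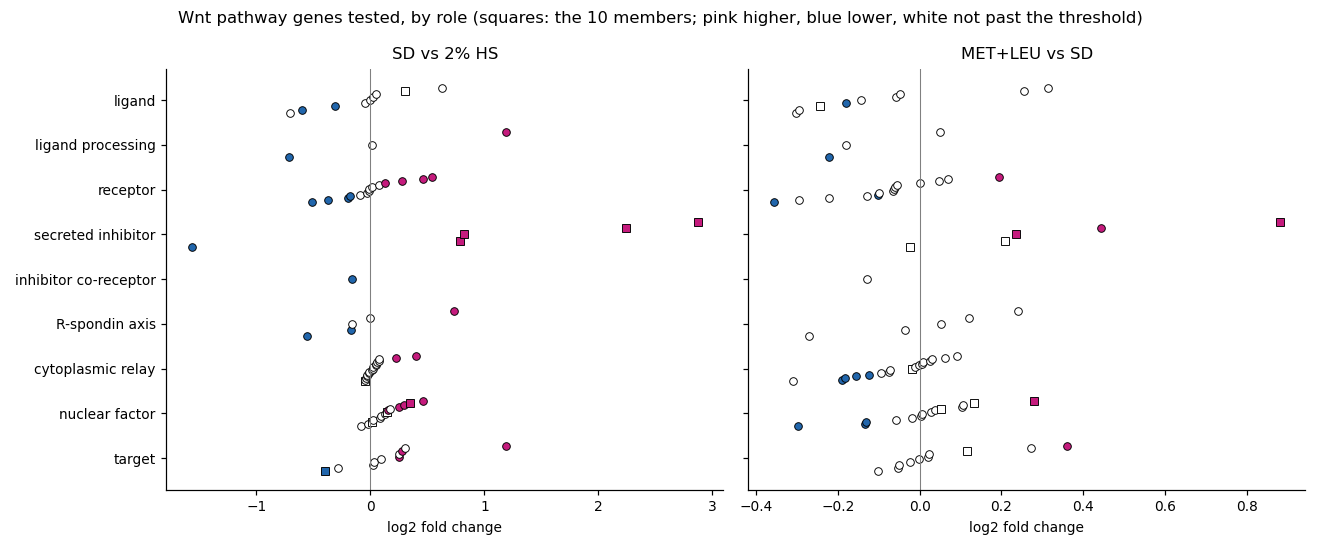
log2 fold change (horizontal axes) of the 78 tested genes of the Wnt list by role, with the effect of SD on the left and that of MET+LEU during SD on the right, with squares for the 10 members, pink for higher, blue for lower and white for genes that did not pass. Among secreted inhibitors in SD vs. 2% HS, 4 are pink and 1, Sfrp4 at -1.57, is blue.

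Among ligands and their processing, 9 of 19 Wnt genes were expressed enough to be tested. Wnt11 and Wnt10a fell in SD vs. 2% HS (log2 fold changes -0.60 and -0.31, adjusted p = 0.00133 and 0.00989), and 0 of the 9 rose, with 3 of the 9 at an unadjusted p under 0.05 in either direction. Porcn, the acyltransferase that lipid-modifies Wnt proteins for secretion, fell from 85.8 to 96.6 CPM in 2% HS to 50.5 to 62.7 in SD (-0.71, SE 0.05, adjusted p = 1.1e-16). Porcn also fell in MET vs. SD (-0.24, SE 0.05, adjusted p = 0.0228), where it was the only gene of the list to pass, and with both agents (-0.22, adjusted p = 0.00128), where Wnt9a fell too (-0.18, adjusted p = 0.00570). In MET vs. SD, 5 of 6 MET libraries were below every SD library. The Porcn call in MET vs. SD was lost in a model of the compared groups alone and at a threshold of 0.01. It was also lost when SD replicate 1 or 2, or MET replicate 4, 5 or 6, was left out. The Wnt9a call in MET+LEU vs. SD was lost in a model of the compared groups alone (adjusted p = 0.0596).

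Of the 14 receptors tested, 4 rose and 4 fell in SD vs. 2% HS, where 13.9% of all genes passed in each direction. Fzd8 rose (log2 fold change 0.54, adjusted p = 1.9e-09), as did Ror2 (0.46, adjusted p = 0.00143), while Fzd4 fell (-0.51, adjusted p = 3.6e-07). The co-receptor Lrp6 rose in MET+LEU vs. SD by 0.19 (adjusted p = 9.3e-05) with every library above all SD libraries, and Fzd2 and Lrp5 fell (-0.36 and -0.10, adjusted p = 0.00187 and 0.0196). The Lrp5 call was lost in a model of the compared groups alone (adjusted p = 0.0786). Lrp6 is a receptor at which Dickkopf proteins act.

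Of the 13 secreted inhibitors, 5 were tested, and all 5 passed in SD vs. 2% HS, where 27.8% of all genes did. Dkk2 is among the 5, although the count filter kept it only through the serum-free groups. Sfrp4, the one that is not a member, moved against the other 4: it fell from 24.1 to 26.5 CPM in 2% HS to 5.74 to 11.8 in SD (log2 fold change -1.57, SE 0.15, adjusted p = 8.2e-10) and was at 10.7 to 14.5 CPM in MET+LEU (0.44 vs. SD, SE 0.16, adjusted p = 0.0482). That last call was lost without MET+LEU replicate 6, at a log2 fold change of 0.46 and an adjusted p of 0.0708. The other 8, among them Dkk1, Dkk4, Sost and Sfrp5, had at most 15 counts in any library. Kremen1, a co-receptor for Dickkopf proteins, fell slightly in SD vs. 2% HS (-0.16, adjusted p = 0.0129). In the R-spondin axis, whose parts act on receptor levels in either direction, Lgr5 rose (0.73, adjusted p = 6.29e-04) and Rspo3 and Znrf3 fell (-0.55 and -0.17, adjusted p = 0.0124 and 0.00148).

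Of 17 cytoplasmic relay genes, Axin1, a scaffold of the destruction complex, and Apc2 rose in SD vs. 2% HS (0.23 and 0.40, adjusted p = 4.47e-04 and 0.0490). Relay genes that fell in MET+LEU vs. SD numbered 4, where 7.8% of all genes fell. Dvl2, Dvl1 and Csnk1d were at -0.19, -0.18 and -0.16 (adjusted p = 0.0273, 0.00837 and 0.0290). Without MET+LEU replicate 6, Dvl1 passed (adjusted p = 0.0189) and Dvl2 and Csnk1d did not (0.0974 and 0.0755). The Dvl1 call was lost with limma-voom (adjusted p = 0.0647) and in a model of the compared groups alone (0.0953). Of 14 nuclear factors, 5 rose in SD vs. 2% HS, where 13.9% of all genes did. Among the 5 were Tcf7l1 (0.46, adjusted p = 6.0e-10), the β-catenin inhibitor Ctnnbip1 (0.29, adjusted p = 0.00162) and Cby1, which also binds β-catenin (0.25, adjusted p = 0.0226). Against SD, MET+LEU lowered the co-activator genes Pygo2 and Bcl9l and the co-repressor Tle3 (-0.30, -0.13 and -0.13, adjusted p = 0.0418, 0.0248 and 0.00904), while Lef1 was the 1 nuclear factor that rose. Without that same library the adjusted p was 0.0625 for Pygo2, 0.0830 for Bcl9l and 0.0146 for Tle3.

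Targets did not move as one. Beside the fall of Axin2 in SD vs. 2% HS, Ccnd1, which encodes cyclin D1 and has many other inputs, rose from 7.88 to 9.98 CPM in 2% HS to 14.01 to 22.9 in SD (log2 fold change 1.19, SE 0.09, adjusted p = 2.0e-14). Tnfrsf19 and Ccn4 rose as well (0.28 and 0.25, adjusted p = 0.00439 and 1.6e-09). The 10 targets tested thus held 3 that rose, 1 that fell and 6 that did not pass, beside 13.9% of all genes in each direction. The 1 target that rose with MET+LEU vs. SD was Nkd2, a feedback inhibitor that binds Dishevelled (0.36, adjusted p = 0.00141), with 5 of 6 libraries above every SD library.

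Over the whole list, MET+LEU vs. SD gave 6 genes up and 11 down of the 78 tested, or 21.8% beside 18.4% of all genes, and without the 10 members 3 up and 11 down of 68. Without MET+LEU replicate 6 this count fell to 11 genes: Sfrp4, Dvl2, Csnk1d, Fbxw11, Bcl9l and Pygo2 no longer passed (adjusted p of 0.0625 to 0.0974), while the other 11 did. LEU vs. SD gave 0 genes of the list by edgeR, with 9 at an unadjusted p under 0.05, and 0 by limma-voom and DESeq2, which left 5 without an adjusted p.

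Dkk2, Sfrp2 and Lef1 lie on the same chromosome. Lef1 (chr3:131110471-131224356) and Dkk2 (chr3:132085292-132180304) are 860935 bases apart, with 4 tested genes between them, and Sfrp2 lies at chr3:83766321-83774316. Of the 887 chromosome 3 genes tested, 134 (15.1%) passed in MET+LEU vs. SD, a share below that of all genes.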

How the data were processed

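Total RNA of 30 C2C12 myotube samples was depleted of ribosomal RNA and sequenced as stranded libraries with reads of 150 bases. The values deposited by the authors are raw counts per Ensembl gene, whole numbers without normalization. The submitters' processing notes name GRCm38, cutadapt 1.16, STAR 2.7.6a, featureCounts 1.6.3 and DESeq2 1.30.1, and the annotation release and the strand setting of the counting are not given in the sources used here. Of the 55487 gene identifiers, 55227, with 99.9957% of the counts, matched GENCODE M21 (GRCm38), from which came symbols, positions and exon lengths. Promoter windows came from RefSeq (GRCm38.p6), where 8 of the 10 members matched.

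Counts were analysed in R 4.3.3 with edgeR 4.0.16. Genes were kept by filterByExpr (minimum count 10, minimum total count 15), libraries were scaled by TMM, and 1 model with a mean for each of the 5 groups was fitted to all 30 libraries (estimateDisp, robust glmQLFit). Each contrast was put to the quasi-likelihood F test at an adjusted p under 0.05 (Benjamini-Hochberg, over 15907 genes). The SE of a log2 fold change was its size divided by the square root of F. Scripts were tested on simulated data. For a gene with 0 counts in a library, an upper limit of 3 counts was set, for counting error alone. No value given here used that limit.

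The 10 members, the list of 104 Wnt genes and the marker lists were chosen with earlier results of these data known. All members were named. Of the other Wnt genes, each role named up to 3 with the largest absolute log2 fold change among those that passed in SD vs. 2% HS, likewise for MET+LEU vs. SD, provided the mean log2 CPM was 1 or more, and any past the threshold in MET vs. SD, LEU vs. SD or the interaction. The genes named for low counts, and the TATAAA and GGGCGG searches, were chosen after values were seen. Whether equal replicate numbers marked pairs was checked by the correlation of deviations from group means. No libraries were identical. The alternatives were scaling by upper quartiles or by the size factors of DESeq2, the tests of DESeq2 1.42.0 and limma 3.58.1 (voom with quality weights), laxer and stricter count filters, a model of the compared groups alone, a block for the replicate number, a GC offset, a threshold of 0.01, unscaled levels and leaving out each library.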

Additional observations from a re-analysis of the deposited data

Results flagged for a closer look

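In 5 of the 50 sets of 6 libraries examined (10 members in 5 groups), 1 library stood apart from the other 5 by Dixon's criterion, where chance flags about 1 in 20 groups. Sfrp2 in SD was 74.5 CPM in replicate 1, with the next library at 62.5, and without that library the log2 fold change in SD vs. 2% HS was 2.18. Axin2 in SD was 8.70 CPM in replicate 2, below the next at 9.99, and without it the log2 fold change was -0.36. Tcf7l2 in 2% HS was 72.1 CPM in replicate 2, above the next at 63.0. Sfrp1 in MET+LEU was 3.33 CPM in replicate 4, above the next at 2.61, and Dkk3 in LEU was 16.5 CPM in replicate 3, above the next at 12.9.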

How the results depend on the processing

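Over 59 results, 563 of 582 values under other settings kept their direction and side of the threshold, and 1702 of 1770 with 1 library left out did. The members passing numbered 6 in each fit of SD vs. 2% HS, 3 to 4 in MET+LEU vs. SD (4, with Tcf7l2, without SD replicate 5), 7 to 8 in MET+LEU vs. 2% HS, 1 in each of MET+LEU vs. MET and 0 to 1 in MET+LEU vs. LEU when a library was left out. With at least 10 counts required in every library Dkk2 was not tested, and 5 passed in SD vs. 2% HS, 2 in MET+LEU vs. SD and 6 in MET+LEU vs. 2% HS. At a threshold of 0.01, 2 passed in MET+LEU vs. SD, without Sfrp2 (adjusted p = 0.0112), and 6 in MET+LEU vs. 2% HS, without Axin2 (0.0118). Ctnnb1 passed in MET+LEU vs. 2% HS, at log2 fold changes of -0.092 to -0.074, with upper-quartile normalization (adjusted p = 0.0231), with the GC offset (0.0491), without 2% HS replicate 2 (0.0448) and without SD replicate 1 (0.0425). In MET+LEU vs. MET 0 passed with at least 10 counts required in every library, since Dkk2 was then not tested. In MET+LEU vs. LEU 0 passed with DESeq2's size factors, upper-quartile normalization, more than 5 counts in total, at least 10 counts in every library, only the groups compared, a GC offset or a threshold of 0.01, and the adjusted p of Dkk2 was 0.0462 to 0.0923 in the fits that tested it and lost the call. For the Wnt pathway list the ranges without 1 library were 29 to 33 genes in SD vs. 2% HS, 11 to 19 in MET+LEU vs. SD, 1 to 7 in MET+LEU vs. LEU, 4 to 8 in MET+LEU vs. MET and 0 to 1 in MET vs. SD. MET+LEU vs. SD gave 11 with limma-voom, 8 with only the groups compared and 9 at a threshold of 0.01. MET+LEU vs. MET gave 2 with only the groups compared and 2 at 0.01. MET+LEU vs. LEU gave 2 with more than 5 counts, 1 with only the groups compared, 2 with the GC offset and 0 at 0.01. MET vs. SD gave 0 with only the groups compared and 0 at 0.01. The causes of these changes in count were not tested.

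Reversals touched values near 0 that passed no threshold. With limma-voom, Ctnnb1 was 0.0058 in MET vs. SD and 0.0065 in MET+LEU vs. SD, and Dkk3 was 0.033 in MET+LEU vs. SD. The Sfrp2 interaction was -0.00583 with DESeq2's size factors, -0.015 with upper-quartile normalization, -0.0076 with DESeq2, -0.028 with limma-voom, -0.0066 with more than 5 counts and -0.0072 with only the groups compared. With 1 library left out the log2 fold changes that crossed 0 were Axin2 in LEU vs. SD (-0.028 to 0.065) and MET vs. SD (-0.0061 to 0.10), Ctnnb1 in MET vs. SD (-0.039 to 0.019) and MET+LEU vs. SD (-0.051 to 0.0070), Dkk3 in LEU vs. SD (-0.093 to 0.045) and MET+LEU vs. SD (-0.079 to 0.037), Lef1 in MET+LEU vs. LEU (-0.0082 to 0.084), Sfrp1 in LEU vs. SD (-0.0078 to 0.19), the Sfrp2 interaction (-0.066 to 0.043), Tcf7 in LEU vs. SD (-0.016 to 0.053) and SD vs. 2% HS (-0.014 to 0.060), Tcf7l2 in MET vs. SD (-0.0014 to 0.091) and Wnt4 in MET+LEU vs. 2% HS (-0.034 to 0.14).

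Over 60 pairs, deviations of libraries with the same replicate number correlated by -0.0913 to 0.142, with a mean of 0.0157. These correlations over all genes showed no general pairing, and they cannot exclude structure in single genes. In Tcf7l2, replicates 4 to 6 lay above replicates 1 to 3 in SD, MET, LEU and MET+LEU, but not in 2% HS. The source of this split was not tested. With the replicate number as a block, 6 members passed in SD vs. 2% HS, 3 in MET+LEU vs. SD and 7 in MET+LEU vs. 2% HS, as without it. Low counts limit Dkk2 in 2% HS (4 to 13) and Sfrp1 (14 to 58) most.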
